A study of Mus musculus with 8 samples.

Results

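The mouse histone genes were followed here by class in the adult hippocampus of BTBR mice, an inbred strain used as a model of autism, and of B6 mice, its comparison strain. Members were the non-control array probes whose gene name in the scanner output began with Hist and a cluster number, H1f, H2af or H3f. There were 70 such probes under 52 gene names, out of 41174 non-control probes under 27373 names on the array. They comprised 7 probes of linker histone H1, 15 of H2A, 12 of H2B, 3 of H3, 8 of H4 and 25 of the separately named variants. H4 genes encode the same protein from near-identical coding sequences, so they were counted as a single group wherever genes rather than probes were counted.

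The study compared gene expression in the hippocampus of the 2 strains on Agilent single-colour arrays. The groups were 4 male BTBR T+ Itpr3tf/J mice and 4 male wild-type C57BL/6J mice (B6), all 5 months old and without drug treatment, with total RNA of the whole hippocampus and 1 array per mouse. The labels also give C57BL/6J as the strain background of the BTBR animals, and the groups were taken from the titles. Inbred strains differ throughout the genome, so no difference below can be assigned to a single allele.

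Histones package DNA into nucleosomes, each built of H2A, H2B, H3 and H4, with the linker histone H1 bound outside the core. Most genes for the core histones and H1 lie in clusters and are transcribed as DNA is replicated, and their mRNAs usually end in a stem-loop instead of a poly(A) tail. Variant histones such as H2A.Z, macroH2A and H3.3 are made throughout the life of the cell, including in neurons that no longer divide, from mRNAs with a poly(A) tail. The labelling kit used in the study primes on poly(A) tails, so the levels below refer to transcripts that carry one. In RNA of a whole tissue, fewer cells with a transcript and less of it per cell cannot be told apart.

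The H4 probes carry the largest differences among the histone probes, and 6 of the 7 that could be tested are shown because their sequences show how far they report separate genes. Each is a 60-base probe with at least 1 reading frame free of stop codons. They are written 5′ to 3′, with the gene name and the probe identifier, and capitals mark bases that match another of the 6 probes where the pair overlap.
Hist1h4d A_51_P482070: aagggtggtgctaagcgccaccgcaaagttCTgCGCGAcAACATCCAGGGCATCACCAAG
Hist1h4a A_51_P412050: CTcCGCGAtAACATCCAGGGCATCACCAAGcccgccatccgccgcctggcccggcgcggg
Hist1h4d A_51_P136097: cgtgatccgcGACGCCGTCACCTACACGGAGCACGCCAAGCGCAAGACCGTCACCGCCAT
Hist1h4f A_52_P52964: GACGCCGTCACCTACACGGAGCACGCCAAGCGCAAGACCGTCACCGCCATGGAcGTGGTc
Hist2h4 A_51_P426975: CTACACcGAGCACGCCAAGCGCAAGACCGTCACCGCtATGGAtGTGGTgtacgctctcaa
Hist4h4 A_52_P299703: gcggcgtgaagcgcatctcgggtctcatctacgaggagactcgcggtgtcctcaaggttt

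By these sequences several of the H4 probes are not independent readings of separate genes. The probes Hist1h4d A_51_P136097 and Hist1h4f A_52_P52964 share an identical stretch of 50 bases. Hist1h4f and Hist2h4 match at 45 of 49 overlapping bases, and Hist1h4a and Hist1h4d A_51_P482070 at 28 of 30. The array annotation itself lists 4 RefSeq genes for Hist1h4d A_51_P136097, 4 for Hist1h4f A_52_P52964 and 3 for Hist1h4a A_51_P412050, and a single gene for each of the other 3 probes shown. Outside the 8 H4 probes, 0 of the 41174 probes shared a run of 20 bases with any of them on either strand. On the mm9 build, the probes lie at chr13:23673507-23673566 and chr13:23673665-23673724 (Hist1h4d), chr13:23852901-23852960 (Hist1h4a), chr13:23643249-23643308 (Hist1h4f), chr3:96066953-96067012 (Hist2h4) and chr6:136752717-136752776 (Hist4h4). The 7th tested probe, Hist1h4i A_51_P505521, lies at chr13:22132591-22132650. The group therefore spans the Hist1 cluster on chromosome 13, the Hist2 cluster on chromosome 3 and the single Hist4h4 gene on chromosome 6. Exon and intron annotation of that build was not used here.

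Levels are normalised intensities on the log2 scale. A probe was tested when it was well above background on at least 75% of the arrays of a strain, which kept 27982 probes of the array. Called means an adjusted p under 0.05 in limma, a linear model of each probe with pooled estimates of variance, adjusted over all tested probes. Of the 70 histone probes, 60 were tested (44 gene names), and 53 of these were well above background on all 8 arrays.

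BTBR hippocampi had far lower levels of every tested H4 probe, lower levels of 1 H2A probe, 1 variant probe and 3 nearly identical H2B probes, and a higher level of 1 H1 probe. Of 60 histone probes tested, 12 were called lower and 1 higher in BTBR, against 4.33% called lower and 3.33% called higher over all tested probes (7.67% in either direction). All 7 tested H4 probes were called lower. With H4 left out, 5 of 53 histone probes were called lower and 1 higher, a share of 11.3%. By gene, with H4 as a single group, 6 of 39 were called lower and 1 higher, 3 of the 6 through the nearly identical H2B probes, where over the array 5.77% of genes had a probe called lower and 4.32% one called higher (10.1% in either direction). The 4 arrays of a strain lay wholly apart from those of the other for 17 of 60 histone probes and for 10 of the 53 outside H4, against 14.2% of all tested probes.

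The median BTBR minus B6 difference over the tested probes of a class was -3.11 for H4 (7 probes), -0.21 for H2B (9), -0.14 for H2A (12), -0.12 for H3 (2), -0.022 for the variants (24) and 0.11 for H1 (6), and it was 0.011 over all tested probes. These medians describe probes that share sequence and RNA, and no test was made of them. Outside H4 they moved with single arrays: without BTBR replicate 1 the median was -0.030 for H2A and -0.11 for H2B, without B6 replicate 4 it was -0.065 for H2A, without BTBR replicate 3 it was 0.050 for H1, and without BTBR replicate 2 it was -0.079 for H3. Outside H4, single differences ran from -1.38 to 0.37. A difference past 1 on the log2 scale was seen for 8 of 60 histone probes, 7 of them H4, and for 1.65% of all tested probes.

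**Figure D1:**
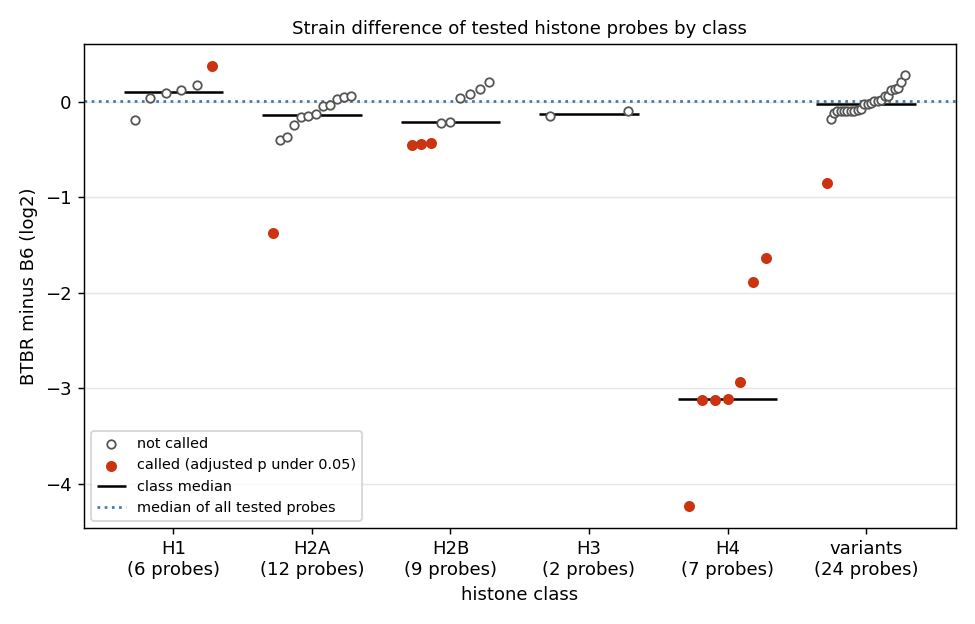
BTBR minus B6 difference (log2) of each tested histone probe by class, with called probes filled, the class median as a bar and the median of all tested probes as a dotted line. The 7 H4 probes lie between -4.23 and -1.64, below every probe of the other classes, and the highest value is Hist1h1b at 0.37.

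H4 is the core histone that pairs with H3 at the centre of the nucleosome. The probe Hist1h4d A_51_P482070 had levels of 13.13, 13.12, 13.31 and 13.29 in B6 replicates 1 to 4 and 8.86, 8.93, 9.14 and 8.99 in BTBR replicates 1 to 4. Every BTBR array lay below every B6 array, and the mean fell from 13.21 ± 0.10 (SD, n = 4) to 8.98 ± 0.12 (SD, n = 4), a difference of -4.23 ± 0.08 (SE, adjusted p = 1.53e-08), or 19-fold. This was the widest gap of any histone probe, and it was -4.93 with the processed signal. The other probe of the gene, Hist1h4d A_51_P136097, read 15.88, 15.61, 15.88 and 15.87 in B6 and 12.42, 12.68, 12.97 and 12.69 in BTBR. Its strains did not overlap either, with a difference of -3.12 ± 0.12 (SE, adjusted p = 6.45e-07) and an 8.7-fold lower level in BTBR.

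Hist1h4f A_52_P52964 read 15.58, 15.52, 15.72 and 15.55 in B6 and 12.33, 12.53, 12.72 and 12.35 in BTBR, a difference of -3.11 ± 0.10 (SE, adjusted p = 1.83e-07). Hist2h4 A_51_P426975, from the cluster on chromosome 3, read 14.12, 14.16, 14.30 and 14.39 in B6 and 10.92, 11.20, 11.22 and 11.14 in BTBR, a difference of -3.12 ± 0.09 (SE, adjusted p = 1.31e-07). The 3 overlapping probes Hist1h4d A_51_P136097, Hist1h4f and Hist2h4 thus differed between strains by nearly the same amount. Hist1h4a A_51_P412050 read 14.12, 13.65, 13.76 and 14.05 in B6 and 10.76, 10.95, 11.19 and 10.93 in BTBR, a difference of -2.93 ± 0.13 (SE, adjusted p = 1.36e-06). No BTBR array reached the lowest B6 array for any of these probes.

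The remaining H4 probes had smaller gaps. Hist4h4 A_52_P299703, which shares no overlap with the other probes shown, read 11.48, 11.46, 11.62 and 11.65 in B6 and 9.47, 9.66, 9.84 and 9.68 in BTBR, a difference of -1.89 ± 0.09 (SE, adjusted p = 2.38e-06). Hist1h4i A_51_P505521 read 10.32, 10.05, 10.47 and 10.57 in B6 and 8.60, 8.64, 8.79 and 8.81 in BTBR, a difference of -1.64 ± 0.11 (SE, adjusted p = 2.85e-05), or 3.11-fold. Over the 20 alternative settings the Hist1h4i difference ran from -2.32 to -1.36. Both probes separated the strains without overlap. The second Hist4h4 probe, A_51_P148860, had 0 arrays with signal well above background in either strain and was not tested.

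All 7 tested H4 probes stayed well above background on all 4 BTBR arrays. Whether BTBR sequence under the probes differs was not tested. For each of them the exact two-sided permutation test over the 8 arrays gave p = 0.0286, the smallest that 4 against 4 allows. Taking the median over the 7 probes in each array, B6 had 14.12, 13.65, 13.76 and 14.05 and BTBR had 10.76, 10.95, 11.19 and 10.93, a difference of -2.93 between means (adjusted p = 2.25e-06 in limma when this median stood for the group among all genes, of which 4.42% were called lower). On every array this median was the value of Hist1h4a A_51_P412050, so it adds no observation to that probe. The arrays lay on 2 slides, each with 2 arrays of each strain. H4 differences ran from -4.23 to -1.56 within slide 1 and from -4.23 to -1.72 within slide 2, and all 7 probes were called within each slide.

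**Figure D2:**
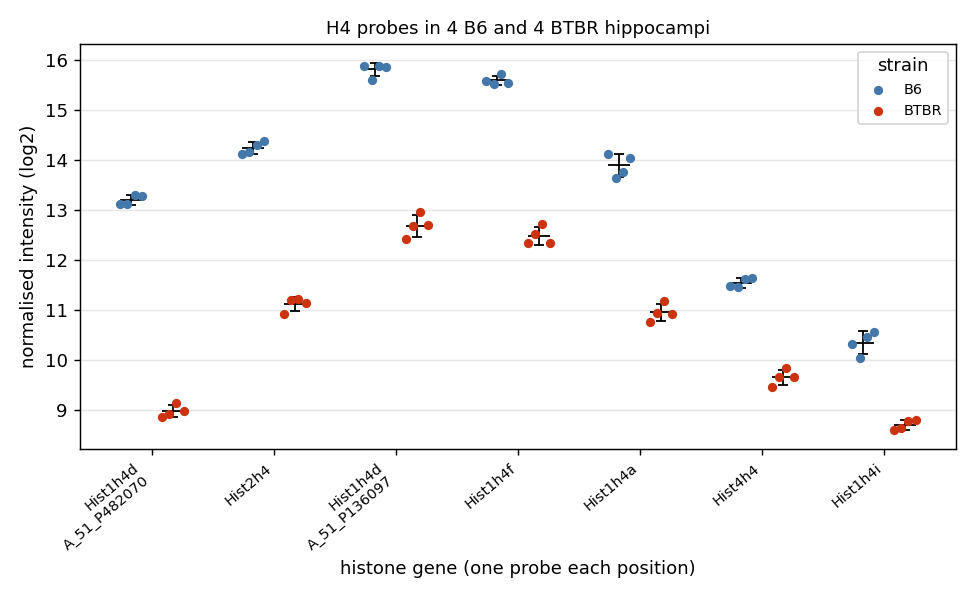
Normalised intensity (log2) of the 7 tested H4 probes on each array, with the mean and SD of each strain (n = 4), points from left to right being replicates 1 to 4. BTBR points lie below B6 points at every probe, with differences of -4.23 at Hist1h4d A_51_P482070 and -1.64 at Hist1h4i.

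Within a strain, the H4 probes moved together from mouse to mouse. BTBR replicate 1 had the lowest level of the 4 BTBR arrays at all 7 probes, and BTBR replicate 3 the highest at 6 of 7, the exception being Hist1h4i, highest in replicate 4. The deviations of each array from its strain mean correlated between probes with a median r of 0.73 over 21 probe pairs and 8 arrays, with a range of 0.31 to 0.95. The points share arrays and many of the probes share sequence. BTBR replicate 1 was also the lowest BTBR array for all 12 tested H2A probes, 7 of 9 H2B probes and 5 of 6 H1 probes, but for 0 of 2 H3 probes, 8 of 24 variant probes and for 24.8% of all tested probes.

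Markers of neighbouring tissue and of blood differed between arrays. The summed linear intensity of 6 thalamic markers, in units of 1000, was 74.8 in BTBR replicate 1 and 9.65 to 15.2 in the other 7 arrays. For 6 striatal markers it was highest in BTBR replicate 2 and up to 33.2 on the other arrays, and for 5 blood markers it was 204 in BTBR replicate 3 and up to 78.7 elsewhere. None of the probes of these 3 lists was called in limma, and 0 had an unadjusted p under 0.05. For 16 genes of hippocampal and cortical neurons the sum was 511 to 553 in B6 and 412 to 590 in BTBR, with 1 of 30 probes called, a Syt1 probe that was lower in BTBR (-0.71, adjusted p = 0.0134), 4 with an unadjusted p under 0.05 and a median difference of -0.29. The 6 astrocyte markers summed to 134 to 143 in B6 and 108 to 133 in BTBR, with 0 of 13 probes called and 2 with an unadjusted p under 0.05. Among oligodendrocyte and choroid plexus markers 0 of 11 and 0 of 7 probes were called (1 and 0 with an unadjusted p under 0.05). Their sums were highest in BTBR replicates 1 and 2, at 464 and 521 for oligodendrocytes against up to 393 on the other arrays, and at 59.6 and 57.7 for choroid plexus against up to 35.4. Among microglial markers 1 of 10 was called higher. Without BTBR replicate 1 the H4 differences were -4.19 to -1.60, without replicate 2 they were -4.21 to -1.62 and without replicate 3 they were -4.29 to -1.67, with all 7 probes called each time.

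Promoters of Hist1h4d, Hist4h4 and Hist1h2ab, each with a probe called lower, are shown. Hist1h4d and Hist1h2ab lie in the Hist1 cluster on chromosome 13 and Hist4h4 lies on chromosome 6. Whether the promoters bear on the levels was not tested. RefSeq promoter windows on GRCm38.p6, from 250 bases before to 50 after the transcript start, were found for 41 of the 52 gene names. The capitals mark matches to 4 motifs, each searched on both strands and none overlapping another in these windows. The TATA box was TATAAA and the CCAAT box CCAAT. The octamer was ATTTGCAT, here found as its reverse complement. The letters of an element known from H4 promoters, GGTCCG, were added after the sequences had been read.
Hist1h4d (RefSeq H4c4), chr13:23581318-23581617, plus strand: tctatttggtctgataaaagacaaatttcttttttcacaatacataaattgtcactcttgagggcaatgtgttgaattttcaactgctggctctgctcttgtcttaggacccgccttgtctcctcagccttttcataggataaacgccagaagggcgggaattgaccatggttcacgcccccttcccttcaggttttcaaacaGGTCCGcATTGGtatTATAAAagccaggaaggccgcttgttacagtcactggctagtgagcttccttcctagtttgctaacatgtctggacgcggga
Hist4h4 (RefSeq H4f16), chr6:136804382-136804681, minus strand: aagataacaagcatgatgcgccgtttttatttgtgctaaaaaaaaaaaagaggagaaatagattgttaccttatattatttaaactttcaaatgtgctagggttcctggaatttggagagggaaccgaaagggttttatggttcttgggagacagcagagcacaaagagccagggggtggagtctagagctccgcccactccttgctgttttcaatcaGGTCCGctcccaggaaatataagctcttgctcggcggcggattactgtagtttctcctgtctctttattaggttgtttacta
Hist1h2ab (RefSeq H2ac4), chr13:23750838-23751137, plus strand: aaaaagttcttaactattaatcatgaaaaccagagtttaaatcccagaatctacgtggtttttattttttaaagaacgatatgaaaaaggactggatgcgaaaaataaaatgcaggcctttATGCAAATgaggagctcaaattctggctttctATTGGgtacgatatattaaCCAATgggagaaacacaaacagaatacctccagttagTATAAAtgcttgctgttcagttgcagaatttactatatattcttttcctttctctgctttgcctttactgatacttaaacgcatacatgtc

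GGTCCG began at -47 from the transcript start in Hist1h4d and at -32 in Hist4h4. It was found in 3 of 4 H4 promoters, the exception being Hist1h4a, and Hist2h4 and Hist1h4i had no window. Of the other promoters, 0 of 26 of the H1, H2A, H2B and H3 genes and 4 of 12 of the variants held it. Over all 32851 windows the share was 8.25%. Since GGTCCG was chosen after these sequences had been read, its counts are a description and no test. The octamer, which binds Oct factors, was found in 6 of 11 H2A and 4 of 7 H2B promoters, 0 of 4 H4 promoters and 1.74% of all windows. TATAAA was found in 3 of 4 H4 promoters, in 15 of 26 promoters of the H1, H2A, H2B and H3 genes and in 13.6% of all windows. CCAAT was found in all 11 H2A and 7 H2B promoters, in 2 of 4 H4 promoters and in 37.4% of all windows. These matches describe the reference sequence of the windows.

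H2A and H2B form the dimers on either face of the nucleosome. Of 12 tested H2A probes 1 was called, against 7.67% of all tested probes. This was Hist1h2ab A_52_P420466 at chr13:23843392-23843451 (mm9). It read 10.02, 9.92, 10.37 and 10.27 in B6 and 8.59, 8.80, 8.86 and 8.82 in BTBR. The strains did not overlap, and the level fell by 1.38 ± 0.11 on the log2 scale (SE, adjusted p = 7.86e-05), or 2.59-fold. Within slide 1 the difference was -1.27 and within slide 2 -1.48, both called. Hist1h2ab was the only histone probe outside H4 with a difference past 1.

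The other 11 H2A probes ranged from -0.40 to 0.06. The lowest of them, Hist1h2ao A_52_P130490, separated the strains without overlap but missed the threshold (difference -0.40 ± 0.10, SE, adjusted p = 0.0511), while it was called under 8 of 20 alternatives, as with slide as a block (adjusted p = 0.0396). Probes of the Hist2 cluster lay close to 0, at 0.04 for Hist2h2aa1 and 0.06 and 0.05 for the 2 probes of Hist2h2ac. Both probes of Hist3h2a had lower means in BTBR with overlapping arrays, at -0.16 and -0.15.

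Of 9 tested H2B probes 3 were called lower, against 4.33% of all tested probes. The sequences of the 3 are shown because they are nearly the same probe. Capitals mark the positions at which the 3 differ.
Hist1h2bk A_52_P388224: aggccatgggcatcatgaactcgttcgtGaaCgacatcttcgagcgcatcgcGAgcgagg
Hist1h2bm A_52_P176361: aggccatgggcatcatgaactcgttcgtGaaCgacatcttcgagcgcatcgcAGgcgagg
Hist3h2bb-ps A_52_P527400: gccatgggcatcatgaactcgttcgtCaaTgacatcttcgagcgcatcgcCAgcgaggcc

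The Hist1h2bk and Hist1h2bm probes matched at 58 of 60 bases, and the Hist1h2bk and Hist3h2bb-ps probes at 55 of 58. Hist1h2bk A_52_P388224 (mm9 chr13:22127928-22127987) read 14.62, 14.48, 14.67 and 14.66 in B6 and 13.96, 14.22, 14.25 and 14.20 in BTBR, a fall of 0.45 ± 0.08 on the log2 scale (SE, adjusted p = 0.0114). Hist1h2bm A_52_P176361 (chr13:21814139-21814198) read 14.64, 14.61, 14.77 and 14.68 in B6 and 14.06, 14.29, 14.27 and 14.34 in BTBR, a fall of 0.44 ± 0.08 (SE, adjusted p = 0.00814). Hist3h2bb-ps A_52_P527400 (chr11:58767697-58767756), named as a pseudogene, read 14.56, 14.38, 14.53 and 14.57 in B6 and 13.78, 14.04, 14.22 and 14.27 in BTBR, a fall of 0.43 ± 0.11 (SE, adjusted p = 0.0474). None of the 3 overlapped between strains, and since they can bind the same transcripts they are best read as a single observation.

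Within slide 1 the adjusted p of Hist1h2bk A_52_P388224 was 0.0501, and within slide 2 those of Hist1h2bk, Hist1h2bm and Hist3h2bb-ps were 0.102, 0.0894 and 0.303, at differences of -0.44, -0.42 and -0.31. The Hist3h2bb-ps call was also lost when any of 6 arrays was left out in turn (B6 replicates 1 to 4 and BTBR replicates 1 and 2, adjusted p up to 0.128). The second Hist1h2bk probe, A_51_P182358, was not called (difference -0.21 ± 0.09, SE, adjusted p = 0.251). The other 5 H2B probes ranged from -0.22 for Hist1h2bc to 0.21 for Hist3h2ba.

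**Figure D3:**
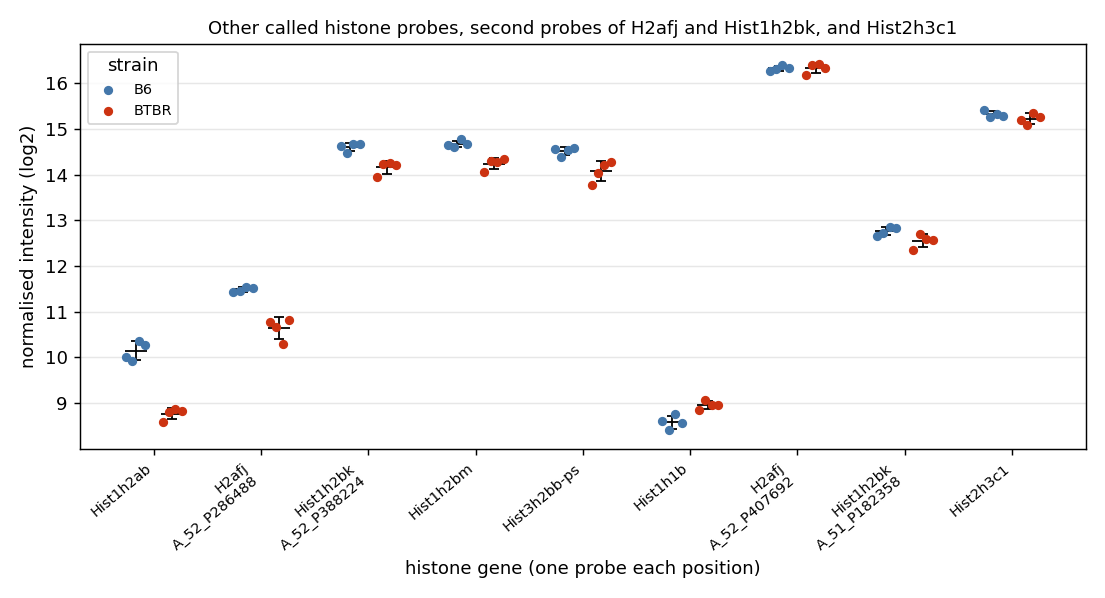
Normalised intensity (log2) of the 6 called histone probes outside H4, of the uncalled second probes of H2afj and Hist1h2bk, and of Hist2h3c1, on each array, with the mean and SD of each strain (n = 4). Hist1h2ab and H2afj A_52_P286488 show the wide gaps, with differences of -1.38 and -0.85, and the strains overlap at the 3 uncalled probes.

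H3 is the partner of H4 in the nucleosome core and carries many of the marks that regulate transcription. Neither of the 2 tested H3 probes was called in limma, and 0 of 2 had an unadjusted p under 0.05. The brighter, Hist2h3c1 A_51_P359462, read 15.40, 15.25, 15.33 and 15.29 in B6 and 15.20, 15.08, 15.36 and 15.26 in BTBR. The strains overlapped, with a difference of -0.09 ± 0.08 (SE, adjusted p = 0.582). Hist1h3d A_51_P492488, annotated to 4 RefSeq H3 genes, differed by -0.15 ± 0.08 (SE, adjusted p = 0.389). The lower H4 levels thus stood beside H3 probes with no called difference on the same arrays, although the difference between the classes was not tested.

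The linker histone H1 binds DNA where it enters and leaves the nucleosome. Of 6 tested H1 probes 1 was called, against 7.67% of all tested probes. This was Hist1h1b A_51_P270949 (mm9 chr13:21871923-21871982), and it was higher in BTBR. It read 8.60, 8.41, 8.75 and 8.56 in B6 and 8.85, 9.06, 8.95 and 8.96 in BTBR, a difference of 0.37 ± 0.09 (SE, adjusted p = 0.0292), which was 0.72 with the scanner's processed signal. The strains did not overlap, but the call was lost when any of 6 arrays was left out in turn (B6 replicates 1, 2 and 4 and BTBR replicates 2, 3 and 4, adjusted p up to 0.0842), and it was not made within slide 1 (0.45, adjusted p = 0.0621) or slide 2 (0.30, adjusted p = 0.368). The other 5 H1 probes ranged from -0.19 for Hist1h1d to 0.18 for Hist1h1a. Hist1h1d A_52_P10683 was lower on every BTBR array than on every B6 array and was not called (adjusted p = 0.107). It was well above background on 3 B6 and 2 BTBR arrays, and with the processed signal it was called lower (-0.79, adjusted p = 0.0141). The other Hist1h1d probe, A_51_P501260, too dim to be tested, was higher in BTBR by 0.42, also without overlap.

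Of 24 tested variant probes 1 was called, against 7.67% of all tested probes. The strains did not overlap at 3 of the 24, against 14.2% of all tested probes. The called probe, A_52_P286488, is of H2afj, which encodes the H2A variant H2A.J. It read 11.43, 11.45, 11.55 and 11.52 in B6 and 10.78, 10.67, 10.30 and 10.81 in BTBR, without overlap, a fall of 0.85 ± 0.11 on the log2 scale (SE, adjusted p = 0.0015), or 1.8-fold. The other H2afj probe, A_52_P407692, read 16.27, 16.31, 16.39 and 16.33 in B6 and 16.18, 16.40, 16.43 and 16.33 in BTBR, a difference of 0.01 ± 0.07 (SE, adjusted p = 0.959). The probes lie 1179 bases apart on chromosome 6 of mm9. H2afj is the neighbour of Hist4h4, whose tested probe ends 4405 bases before the brighter H2afj probe.

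H2A.Z and H2A.X have roles in transcription and in DNA repair. H2afz A_52_P468268 (H2A.Z) read 15.37, 15.60, 15.60 and 15.57 in B6 and 15.48, 15.61, 15.27 and 15.37 in BTBR, a difference of -0.10 ± 0.09 (SE). H2afv A_51_P472630, the gene of the second H2A.Z, read 14.65, 14.65, 14.60 and 14.56 in B6 and 14.50, 14.80, 14.44 and 14.42 in BTBR, a difference of -0.08 ± 0.09 (SE). H2afx A_51_P245275 (H2A.X) read 13.38, 13.45, 13.35 and 13.33 in B6 and 13.15, 13.45, 13.49 and 13.49 in BTBR, a difference of 0.01 ± 0.09 (SE). The strains overlapped at all 3 genes, whose adjusted p-values were 0.653, 0.725 and 0.956.

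MacroH2A variants carry an extra globular domain and mark inactive chromatin. H2afy A_52_P141583 (macroH2A1) read 11.91, 11.92, 12.02 and 12.19 in B6 and 12.23, 12.07, 12.16 and 12.15 in BTBR, a difference of 0.14 ± 0.08 (SE, adjusted p = 0.382). All 3 H2afy probes had a higher mean in BTBR, from 0.13 to 0.21, and A_52_P402989 did not overlap between strains at 0.21, but none was called. H2afy2 A_52_P218990 (macroH2A2) read 7.73, 7.96, 7.94 and 7.78 in B6 and 7.97, 7.92, 7.94 and 8.10 in BTBR, a difference of 0.13 ± 0.08 (SE) near the background, which was 0.53 with the processed signal and not called there. H2afy3 A_51_P487668, annotated to a non-coding RefSeq transcript, read 11.25, 11.27, 11.10 and 11.06 in B6 and 11.29, 11.21, 11.22 and 11.22 in BTBR, a difference of 0.06 ± 0.07 (SE). The H2afy2 probe is annotated to H2afy3 as well.

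H3.3 is the replacement H3 of cells that no longer divide and comes from 2 genes. H3f3a A_51_P456237 read 15.17, 15.05, 15.16 and 15.22 in B6 and 14.98, 15.20, 14.95 and 15.07 in BTBR, a difference of -0.10 ± 0.07 (SE, adjusted p = 0.562). The 3 probes of H3f3a all lay at -0.10. H3f3b A_51_P164667 read 15.54, 15.40, 15.32 and 15.27 in B6 and 15.30, 15.29, 15.30 and 15.17 in BTBR, a difference of -0.12 ± 0.07 (SE, adjusted p = 0.477), and its 3 probes ranged from -0.17 to -0.09. The strains overlapped at every H3f3a and H3f3b probe.

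Among the H1 variants, H1f0 is the linker histone of differentiated cells. H1f0 A_52_P442234 read 10.66, 10.67, 10.59 and 10.49 in B6 and 10.76, 10.39, 10.61 and 10.55 in BTBR, a difference of -0.02 ± 0.09 (SE, adjusted p = 0.921). H1fx A_52_P748854 read 10.41, 10.61, 10.67 and 10.72 in B6 and 10.73, 10.84, 11.20 and 10.77 in BTBR, a difference of 0.29 ± 0.12 (SE, adjusted p = 0.228). The H1fx strains barely separated at this probe, and the second H1fx probe lay at -0.01. H1foo, the oocyte linker histone, read 8.30, 8.10, 7.98 and 7.86 in B6 and 8.13, 8.19, 8.04 and 7.98 in BTBR, a difference of 0.02 ± 0.10 (SE). H2afb1 read 7.91, 8.32, 8.16 and 8.36 in B6 and 8.17, 8.31, 8.19 and 8.32 in BTBR, a difference of 0.06 ± 0.10 (SE). Neither was called. Both lacked a clear signal on 1 B6 array, and H1foo also on 1 BTBR array.

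**Figure D4:**
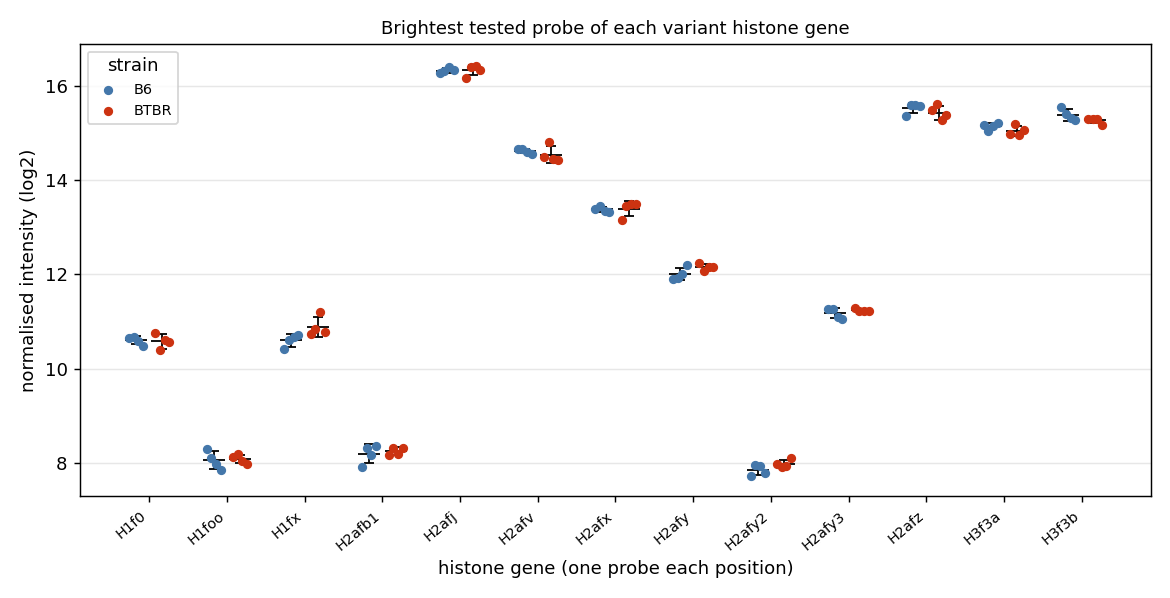
Normalised intensity (log2) of the brightest tested probe of each of 13 variant histone genes on each array, with the mean and SD of each strain (n = 4). The strains overlap at all of these probes except H1fx, and none of the 13 was called.

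The remaining 10 of the 70 member probes were too dim to test, and 8 gene names had no tested probe. Their levels ran from 7.36 to 9.89 with a median of 7.76. No histone probe was well above background on all arrays of a strain and on none of the other.

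Other genes of histone metabolism were read on the same arrays. Of 49 tested probes for histone mRNA processing (27 genes), 2 were called higher and 2 lower, close to the 7.67% called over all tested probes. Sympk, a scaffold of the complex that cleaves mRNA 3′ ends, read 13.48, 13.69, 13.75 and 13.61 in B6 and 12.48, 12.57, 12.36 and 12.59 in BTBR, a fall of 1.13 ± 0.08 on the log2 scale (SE, adjusted p = 3.74e-05). Casp8ap2, a factor needed for histone gene transcription, rose by 0.55 ± 0.05 (SE, adjusted p = 0.000259), from 10.44 ± 0.03 in B6 to 10.99 ± 0.03 in BTBR (SD, n = 4). Srrt, a partner of the nuclear cap-binding complex, rose by 0.61 ± 0.08 (SE, adjusted p = 0.00163), from 10.92 ± 0.14 in B6 to 11.53 ± 0.07 in BTBR (SD, n = 4). The strains lay apart at all 3 genes. The median difference of the list was -0.023.

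Of 61 tested probes for histone chaperones and deposition factors (33 genes), 4 were called lower and 0 higher, where over all tested probes 4.33% were called lower and 7.67% in either direction. At an unadjusted p under 0.05 there were 10, also with 0 higher, against 5165 of the 27982 probes tested. Hjurp, the chaperone of the centromeric H3 variant CENP-A, read 11.91, 11.92, 11.84 and 11.82 in B6 and 10.79, 10.63, 10.31 and 10.41 in BTBR at A_52_P50474, a fall of 1.34 ± 0.10 on the log2 scale (SE, adjusted p = 6.21e-05). Its second probe, A_52_P221554, fell by 0.28 ± 0.06 (SE, adjusted p = 0.0157). Rbbp4, a histone-binding subunit of several chromatin complexes, fell by 0.93 ± 0.08 at A_52_P424767 (SE, adjusted p = 0.0001), from 10.02 ± 0.05 to 9.08 ± 0.14 (SD, n = 4). The median difference of the list was 0.0018.

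Of 30 tested probes for S phase and proliferation (24 genes), 6 were called higher and 4 lower, against 3.33% and 4.33% over all tested probes. Mcm3, a subunit of the replicative helicase, rose by 1.18 ± 0.14 (SE, adjusted p = 0.000816), from 9.31 ± 0.22 in B6 to 10.49 ± 0.23 in BTBR (SD, n = 4). Plk1, a kinase of mitosis, rose by 0.74 ± 0.09 (SE, adjusted p = 0.000802), from 9.24 ± 0.09 to 9.98 ± 0.15 (SD, n = 4). Tyms, which makes thymidylate for DNA synthesis, fell by 0.66 ± 0.09 at A_51_P398366 (SE, adjusted p = 0.0025), from 9.94 ± 0.16 to 9.28 ± 0.12 (SD, n = 4). Of the 24 genes, 5 were called higher and 3 lower, and the median difference of the list was 0.024. Their brightest probes summed to a linear intensity of 52.2 to 58.8 in B6 and 48.0 to 50.1 in BTBR, in units of 1000.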

How the data were processed

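Total RNA of the hippocampi was labelled with Cy3 and hybridised to Agilent arrays. The deposited scanner files hold intensity values per spot (mean signal and local background), extracted by the authors with Feature Extraction 9.1 per the processing notes, while the file headers name 10.7.3.1. The deposited matrix of the authors holds log2 values, quantile normalised with the median over replicate spots per the methods, and was used as an alternative. The authors' rank product test was not run, since its null permutes probes.

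Here the background was subtracted (floor 0.5), an offset of 50 added, log2 taken and the 8 arrays quantile normalised, with the median over spots of a probe. A log2 difference therefore understates the change of dim probes. Left out were 154 probes with at least 50% of their spots marked as outliers on an array, and probes not well above background on at least 75% of the arrays of a strain. From 56.8% to 71.9% of probes were well above background per array and no spot was saturated. Limma 3.58.1 in R 4.3.3 (lmFit, eBayes) compared the 4 BTBR with the 4 B6 arrays, with Benjamini-Hochberg adjustment over 27982 probes. Replicates are separate mice per the labels, and their number limits the precision. In simulated data of 4 against 4 arrays, 197 of 200 probes given a log2 change of 2 were recovered among 27982, with 10 false calls. Smaller changes, as at Hist4h4, Hist1h4i and every histone probe outside H4, were not simulated. SciPy gave the exact permutation tests.

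A gene was called if any tested probe was, and its direction was that of the called probe lowest in p. Values on every array are given for called members, for the brightest probe of a class with none called, and for the brightest probe of each variant gene. Up to 3 called genes per context list are given by array or by strain mean. The members and lists were chosen with earlier results of these data known. Of the 52 gene names, 47 matched a RefSeq gene by transcript accession. Alternatives were Feature Extraction's processed signal scaled by its 75th percentile, the matrix as deposited, background correction by normexp, centring on the median, no or a stricter filter on dim probes, kept outlier spots, other variance options, blocks for replicate number or slide, each slide alone, and each array left out.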

Additional observations from a re-analysis of the deposited data

Results flagged for a closer look

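Single arrays standing apart from the other 3 of their strain (by Dixon's ratio of gap to range) were found in 12 of 140 checks over 70 probes, and chance gives about 1 in 20. The widest was Hist1h2ae A_51_P286460, an untested probe, at 9.89 in BTBR replicate 3 against 7.58 to 7.66 in the other BTBR arrays. Among called probes, Hist1h4d A_51_P136097 had its lowest B6 level, 15.61, in replicate 2 (others 15.87 to 15.88), and without it the difference was -3.19. Hist1h2bk A_52_P388224 had 13.96 in BTBR replicate 1 (others 14.20 to 14.25), and without it the difference was -0.38 (adjusted p = 0.0175).

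The rest were uncalled probes. In BTBR replicate 1, Hist2h2ac A_52_P257377 was low at 15.69, H2afx at 13.15 and H3f3a A_52_P1041253 at 14.34, while H2afy3 was high at 11.29. In B6 replicate 1, H2afz A_52_P468268 was low at 15.37 and H3f3a A_52_P1041253 high at 14.70. Hist1h1e was high at 10.79 in BTBR replicate 3, and its difference went from 0.09 to -0.024 without that array. In BTBR replicate 4, Hist1h2bq was high at 8.09 and H3f3b A_51_P164667 low at 15.17.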

How the results depend on the processing

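All 7 tested H4 probes were called lower under each of the 20 alternatives, with differences from -4.93 (Hist1h4d A_51_P482070, processed signal) to -1.36 (Hist1h4i, deposited matrix), and Hist1h2ab and H2afj A_52_P286488 kept their calls throughout. The single higher call, Hist1h1b, became 0 within slide 1 and within slide 2 and 0 to 1 with an array left out, both by probe and by gene, and there were 2 without the filter on dim probes, where Hist1h1d A_51_P501260 joined (0.42, adjusted p = 0.0459). The count of genes called lower went from 6 to 3 within slide 2. The median of the variants went from -0.022 to -0.0062 with the processed signal, -0.052 with median centring, -0.080 over probes well above background on all arrays, -0.047 within slide 1, 0.021 within slide 2 and -0.054 to -0.012 with an array left out. The H1 median went from 0.11 to 0.069 with median centring, 0.025 within slide 1 and 0.20 within slide 2, that of H2A from -0.14 to -0.038 without the filter and -0.061 within slide 2, that of H2B from -0.21 to -0.13 without the filter, and that of H3 from -0.12 to -0.19 with median centring, -0.22 within slide 1 and -0.023 within slide 2. Hist1h2bm and Hist3h2bb-ps lost their calls with the processed signal (adjusted p = 0.0581 and 0.0998), and Hist3h2bb-ps without the filter (adjusted p = 0.06). Of the S phase list, higher calls went from 6 to 3 without the filter, 3 within slide 1, 2 within slide 2 and 2 to 5 with an array left out, and lower calls from 4 to 1 within slide 2 and 2 to 4. Lower calls of the chaperone list went from 4 to 2 with the processed signal, within slide 1 and within slide 2, and to 2 to 5 with an array left out. Those of the mRNA processing list went from 2 to 1 with the processed signal, the deposited matrix and within slide 2, and to 1 to 2 with an array left out, while its higher calls were 2 to 4. Of the 47 uncalled tested histone probes, 20 changed sign under at least 1 alternative, among them 7 of the 14 whose values on every array are given. The cause of these changes was not tested.

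With the replicate number as a block, 12 histone probes were called lower and 0 higher (genes 6 and 0): 11 of the 13 calls were kept, Hist1h1b and Hist3h2bb-ps were lost (adjusted p = 0.0916 and 0.0727) and Hist1h2ao was gained (0.0387), and the lists had 3 higher and 2 lower (S phase), 2 lower (chaperones) and 1 lower (mRNA processing). The numbers are not known to pair mice: same-numbered arrays deviated together with r of -0.14, 0.51, -0.10 and 0.39. Slide as a block kept all 13 calls and added Hist1h2ao as a 13th probe called lower.

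The arrays read the sum of transcripts that bind a probe, so the H4 genes of the probes that overlap or are annotated to several genes cannot be separated, and probe sequences are those of the array's design, with no BTBR sequence used here. Dim probes, at about 8 and below, are near the background and limit what can be seen of untested members.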

Other observations

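Other genes near the histone clusters were read as values only, over mm9 windows reaching 100 kb beyond the outermost member probes. Around the Hist1 cluster on chromosome 13, 1 of 20 tested non-histone probes was called higher and 4 lower, with a median difference of -0.038 and a range of -1.33 to 0.83. Over all tested probes 3.33% were called higher and 4.33% lower. Around the Hist2 cluster on chromosome 3, 0 of 13 were called in limma and 0 had an unadjusted p under 0.05. Their differences ranged from -0.15 to 0.26. The Hist2h4 probe in that window had a difference of -3.12. That probe matches the Hist1h4f probe of chromosome 13 at 45 of 49 overlapping bases. Its signal therefore cannot be assigned to the chromosome 3 gene alone. Around the Hist3 cluster on chromosome 11, 3 of 11 were called lower, with a range of -0.55 to 0.29. Around Hist4h4 and H2afj on chromosome 6, 1 of 3 was called higher, with a range of -0.021 to 1.76.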
